A study of Mus musculus with 4 samples.

Results

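The retinoblastoma pocket proteins and the inhibitors of cyclin-dependent kinases were measured in primary fibroblasts from mouse embryos, which are connective tissue cells in their first passages of culture, with and without RBP2. The set holds 8 genes, Rb1, Rbl1, Rbl2, Cdkn1b, Cdkn2a, Cdkn2b, Cdkn2c and Cdkn2d, chosen by name as the arm of the pathway that holds fibroblasts out of the cell cycle. All probe sets annotated with exactly 1 of these symbols were taken, which gave 14 of the 45037 probe sets on the array that are not controls, for 8 of 18193 genes named by it. On these arrays several short probes, together called a probe set, report on 1 transcript. RNA came from 2 independent wild-type lines and 2 lines labelled RBP2-/-, all at passage 3, with 1 Affymetrix array per line. RBP2 is retinoblastoma binding protein 2, encoded by Kdm5a, a demethylase that acts on lysine 4 of histone H3. The sources used here do not give the targeted allele, the strain, the embryonic age or any littermates. The comparison asks whether transcripts of the pocket protein arm differ in level when RBP2 is absent.

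The pocket proteins pRB (Rb1), p107 (Rbl1) and p130 (Rbl2) bind E2F transcription factors and hold back the genes of DNA replication. Cyclin-dependent kinases release E2F by phosphorylating them. The Ink4 proteins p16 and p15 (Cdkn2a and Cdkn2b) and p18 and p19 (Cdkn2c and Cdkn2d) block Cdk4 and Cdk6, and the Kip protein p27 (Cdkn1b) blocks mainly Cdk2. Cdkn2a also encodes Arf, from a separate first exon and another reading frame, which stabilises p53 by binding Mdm2. In mouse embryonic fibroblasts p16 and Arf accumulate with passage in culture and take part in senescence, the lasting arrest of growth.

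Promoter windows are shown because 1 probe set reads both products of Cdkn2a and because RBP2 binds DNA through an ARID domain that has been reported to prefer the letters CCGCCC. The windows are the 250 bases before a start site, from RefSeq on GRCm38.p6, where 7 of the 8 genes matched with 9 windows. GGGCGG and its reverse complement CCGCCC, also known as the GC box, were in 5 of these 9 windows, against 32.7% of all 32851 windows of that length. An E2F site, spelled TTTCCCGC, TTTCGCGC, TTTGCCGC or TTTGGCGC on either strand, was in 2 of 9, against 1.86% of all. The CHR element, TTTGAA on either strand, through which complexes of p107 and p130 repress genes, was in 2 of 9, those of Rbl2 and Cdkn2b, against 16.0%. In the windows below, all from the minus strand and printed 5′ to 3′, capitals mark GC boxes and E2F sites, which did not overlap each other. They lie at chr2:157204535-157204784 (Rbl1), chr4:89294620-89294869 (the upstream Cdkn2a start, which gives Arf), chr4:89282193-89282442 (the downstream Cdkn2a start, which gives p16), chr4:89311033-89311282 (Cdkn2b) and chr4:109666757-109667006 (the upstream of the Cdkn2c starts).
Rbl1: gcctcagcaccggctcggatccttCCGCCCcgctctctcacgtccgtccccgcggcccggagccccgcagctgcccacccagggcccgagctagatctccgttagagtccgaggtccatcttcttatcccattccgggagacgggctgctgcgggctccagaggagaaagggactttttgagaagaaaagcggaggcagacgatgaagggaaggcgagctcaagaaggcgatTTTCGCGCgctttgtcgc
Cdkn2a, Arf start: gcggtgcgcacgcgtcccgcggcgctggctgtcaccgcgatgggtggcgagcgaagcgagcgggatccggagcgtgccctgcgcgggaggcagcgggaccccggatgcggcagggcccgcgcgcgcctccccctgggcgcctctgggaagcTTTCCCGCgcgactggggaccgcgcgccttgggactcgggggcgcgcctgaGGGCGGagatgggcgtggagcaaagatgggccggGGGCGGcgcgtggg
Cdkn2a, p16 start: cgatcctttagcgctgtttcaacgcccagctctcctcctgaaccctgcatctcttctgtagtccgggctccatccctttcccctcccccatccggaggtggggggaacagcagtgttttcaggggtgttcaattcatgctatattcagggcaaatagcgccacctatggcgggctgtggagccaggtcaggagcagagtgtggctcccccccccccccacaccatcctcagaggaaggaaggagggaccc
Cdkn2b: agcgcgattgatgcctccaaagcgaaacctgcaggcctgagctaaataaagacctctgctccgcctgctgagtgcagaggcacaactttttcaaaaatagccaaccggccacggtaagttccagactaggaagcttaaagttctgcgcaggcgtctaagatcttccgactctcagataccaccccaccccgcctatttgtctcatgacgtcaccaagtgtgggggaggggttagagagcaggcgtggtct
Cdkn2c: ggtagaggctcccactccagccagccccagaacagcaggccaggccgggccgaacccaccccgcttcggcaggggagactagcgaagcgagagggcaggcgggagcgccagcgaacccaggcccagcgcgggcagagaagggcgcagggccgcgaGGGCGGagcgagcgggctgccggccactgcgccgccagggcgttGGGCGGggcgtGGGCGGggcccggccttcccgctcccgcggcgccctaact
Rbl1 had 1 GC box and 1 E2F site, the Arf start had 2 GC boxes and 1 E2F site, and the p16 start and Cdkn2b had 0 of either. The printed window of Cdkn2c had 3 GC boxes and 0 E2F sites, as did that of Cdkn2d, which is not printed. The window of the downstream Cdkn2c start, also not printed, had 0 of either. The share of G and C ran from 42.8% to 78.4% over the members' windows, against a median of 52.4% over all windows, and GC boxes are more likely in windows rich in G and C. A match is a description of the letters and shows no binding.

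Brightness differed between the deposited arrays. Median deposited signal was 22.7 and 29.4 on wild-type arrays 1 and 2 and 21.5 and 43.7 on RBP2-null arrays 1 and 2. Probe sets in the upper 60% by mean signal were kept for testing, among them 9 of the 14 member probe sets, while the other 5 had deposited signals of 0.6 to 31.2. All 9 were brightest as deposited on RBP2-null array 2. Signals were quantile normalized, and 9 was added before taking log2, so every log2 value below is log2(normalized signal + 9) and fold changes of dim probe sets are understated. Wild-type array 1 correlated with the others at 0.923 to 0.925 across probe sets, while the others correlated with each other at 0.946 to 0.963. Of the 12 fibroblast markers, 12 were kept, and their summed normalized signal was 45491 and 48774 in wild type and 46296 and 48739 in RBP2-null cells. Markers of other cell types were kept in part, except those of smooth muscle, and 0 of them passed the threshold. Of 11 leukocyte markers with a probe set 7 were kept, without Ptprc, Cd68, Itgam and Aif1, and 7 estimates were below 0. All 11, kept or not, had summed normalized signals of 631 and 494 in wild type and 430 and 426 in RBP2-null cells. Sums of the next lists also include the markers that were not kept. Of 10 endothelial markers 7 were kept, without Pecam1, Tie1 and Vwf. All 10 summed to 431 and 410 in wild type and 559 and 372 in RBP2-null cells. Of 10 epithelial markers 6 were kept, without Cdh1, Cldn3, Cldn7 and Esrp1. All 10 epithelial markers summed to 925 and 696 against 611 and 780. Of 10 skeletal muscle markers 5 were kept, without Myog, Myf5, Myf6, Mylpf and Tnnt1, and all 10 summed to 954 and 514 against 1440 and 526. Of 6 erythroid markers 3 were kept, and all 6 summed to 201 and 148 against 84.6 and 105. Of 5 trophoblast markers 2 were kept, and all 5 summed to 252 and 194 against 139 and 173. Of 9 neural and glial markers 7 were kept, with 5 estimates above 0 and 2 below, and all 9 summed to 1055 and 1057 against 989 and 1088. All 6 smooth muscle markers were kept and summed to 20262 and 15804 against 19964 and 15533. Their estimates ran from -0.12 to 1.34, with 2 above 0 and 4 below. The part of these cell types in the members' values was not tested. Kdm5a, the targeted gene, had deposited signals of 61.8 and 198.6 in wild type and 56.5 and 126.8 in RBP2-null cells on its brightest probe set. Its log2 fold change there was -0.74 (SE 0.34), which did not pass the threshold, and its other 4 kept probe sets ran from -1.24 to 0.24. Whether these probes lie in the deleted part is not known, so they do not check the labels. With 4 arrays, their number limits the precision. The p-values set the genotype difference against the spread between these lines, borrowed in part from probe sets of like brightness. An exact two-sided permutation test could not go below 0.333, so tests were made with limma across all probe sets.

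Transcripts of the 8 genes spanned 0.078 to 0.63 log2 units over the 4 arrays, and 0 of the 9 kept member probe sets passed the threshold of a limma adjusted p of 0.05. Over all 27023 kept probe sets 0.0037% passed, which is 1 probe set, of the chemokine Cxcl12. That count was 41 without wild-type line 2, 2 without wild-type line 1 and 0 without RBP2-null line 2, and the members' count was 0 in each of these. At an unadjusted limma p under 0.05 there were 0 member probe sets, against 2.96% of all kept ones (1.55% higher and 1.41% lower), and the smallest unadjusted limma p of a member was 0.24, that of Cdkn2c. Of the 9 estimates, 3 were above 0 and 6 below, though Rb1, Rbl1 and Cdkn2a turned sign with arrays centred on their medians. The median was -0.020, against a median of 0.0029 over all kept probe sets. The median absolute log2 fold change was 0.065 for the members and 0.21 for all kept probe sets. These medians are not matched for brightness, as the members lay at percentiles 66.3 to 93.3 of mean signal. The median SE was 0.27 for the members and 0.32 for all kept probe sets. All 9 of the 95% intervals held 0 and lay within 1 log2 unit on either side. The lowest bound was -0.97, or 1.95-fold lower in RBP2-null cells, and the highest was 0.70, or 1.63-fold higher. For 8 of the 9, the difference between genotype means was smaller than the larger of the gaps between lines of 1 genotype. The exception, Cdkn2d, is described below.

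**Figure D1:**
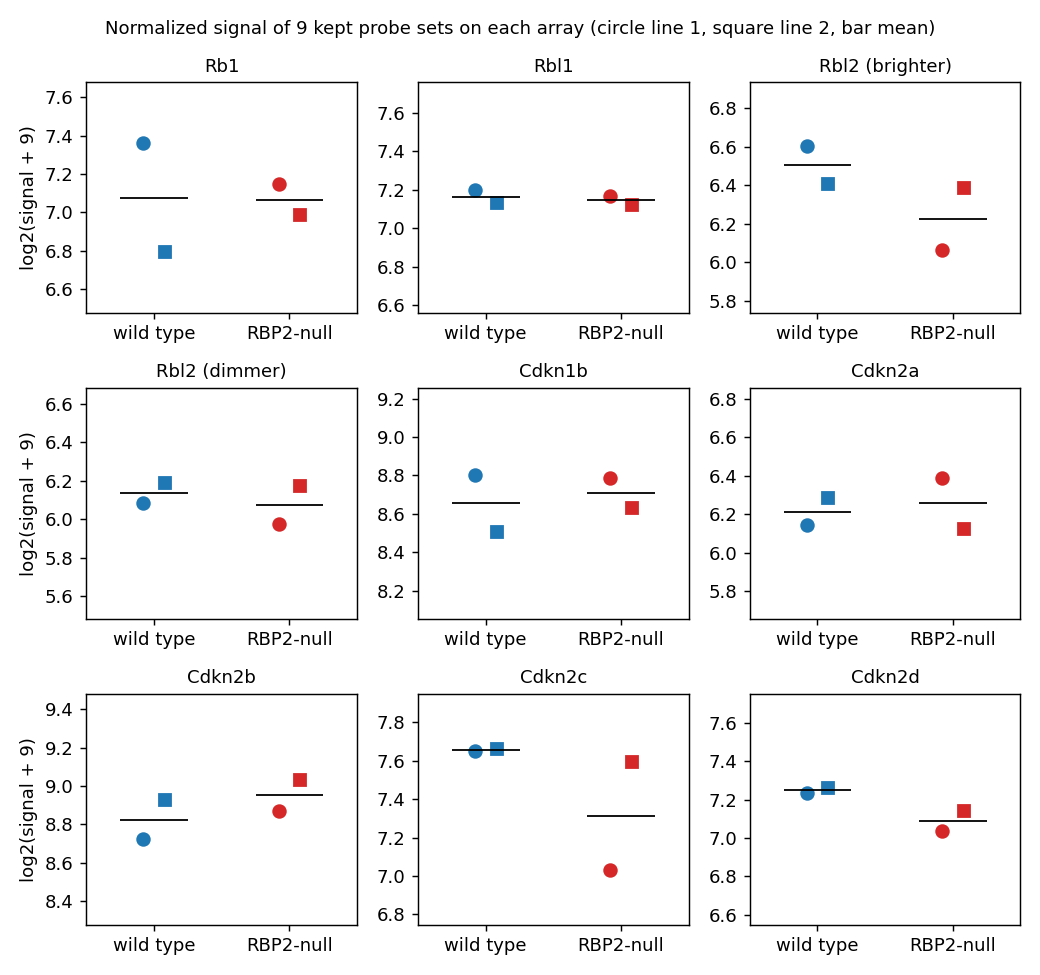
Normalized log2(signal + 9) of the 9 kept member probe sets, 1 panel each, with wild type in blue and RBP2-null in red, circles for line 1, squares for line 2 and a bar at the mean of 2 lines. Every panel spans the same height, and the genotypes overlap in 6 of the 9 panels, while Cdkn2c, Cdkn2d and the brighter Rbl2 probe set have both red points below both blue ones.

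Rb1, which encodes pRB itself, had nearly the same mean level in both genotypes but lines that differed within wild type. As deposited, the signal of probe set 1417850_at was 96.2 and 104.3 in wild-type lines 1 and 2 and 101.3 and 186.8 in RBP2-null lines 1 and 2. Normalized log2 signal was 7.36 and 6.79 in wild type and 7.15 and 6.99 in RBP2-null cells. Both RBP2-null lines thus lay between the wild-type lines. Means were 7.08 ± 0.40 (SD, n = 2) and 7.07 ± 0.11 (SD, n = 2). The log2 fold change was -0.010 (SE 0.29), with 95% bounds at -0.66 and 0.64 (limma adjusted p = 1.00). It was 0.27 without wild-type line 1 and -0.29 without wild-type line 2. It was 0.068 without RBP2-null line 2 and -0.089 without RBP2-null line 1, so the sign changed with the lines used. The other Rb1 probe set, 1444400_at, had deposited signals of 0.6, 12.5, 0.7 and 2.2 in the same order and was too dim to be kept.

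Rbl1, which encodes p107, a pocket protein made mainly by cycling cells, was the most even member over the arrays. Deposited signal of 1424156_at was 85.5 and 135.6 in wild type and 103.6 and 206 in RBP2-null cells, and after normalization 7.20 and 7.13 against 7.17 and 7.12 on the log2 scale. The lines of both genotypes interleaved within 0.078 log2 units. The means were 7.17 ± 0.047 (SD, n = 2) and 7.15 ± 0.035 (SD, n = 2), and the log2 fold change was -0.020 (SE 0.25), with 95% bounds at -0.58 and 0.54 (limma adjusted p = 1.00). The upper bound stands for 1.45-fold higher. The standard error is borrowed in part from probe sets of like brightness, so it is wider than the arrays of this gene alone show. The remaining 3 Rbl1 probe sets were too dim to be kept, with deposited signals between 1.9 and 31.2, and the genotypes overlapped on each.

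Rbl2, which encodes p130, the pocket protein of resting cells, was the only member gene with 2 kept probe sets. The brighter, 1425981_a_at, had deposited signals of 57.4 and 77.2 in wild type and 42.8 and 116.8 in RBP2-null cells. Its normalized log2 signal was 6.61 and 6.41 in wild type and 6.07 and 6.38 in RBP2-null cells. Both RBP2-null lines were below both wild-type lines, although RBP2-null line 2 lay next to wild-type line 2. The log2 fold change was -0.28 (SE 0.29), with 95% bounds at -0.94 and 0.37 (limma adjusted p = 1.00), and it was -0.12 without RBP2-null line 1. The dimmer, 1418146_a_at, had normalized log2 signals of 6.08 and 6.19 in wild type and 5.97 and 6.17 in RBP2-null cells, which overlapped. Its log2 fold change was -0.065 (SE 0.29). The Rbl2 probe sets therefore shared the low value of RBP2-null line 1 but not a separation of the genotypes.

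Cdkn1b, which encodes p27, had a bright probe set that was even across genotypes and a dim one that was not. The bright one, 1434045_at, had deposited signals of 263.3 and 365.2 in wild type and 351.9 and 604.2 in RBP2-null cells. On the normalized log2 scale these became 8.80 and 8.50 against 8.78 and 8.63, so both RBP2-null lines fell between the wild-type lines. Its log2 fold change was 0.054 (SE 0.22), with 95% bounds at -0.45 and 0.56 (limma adjusted p = 1.00), and it was 0.20 without wild-type line 1 and -0.096 without wild-type line 2. The dim probe set, 1419497_at, had deposited signals of 17.7 and 26.8 in wild type and 5.9 and 19.4 in RBP2-null cells, and was not kept. Both RBP2-null lines were below both wild-type lines on it after normalization, at 4.12 and 4.48 against 4.97 and 5.16 in log2 signal. In a fit of all probe sets without the filter its log2 fold change was -0.77 (SE 0.45, limma adjusted p = 1.00). Cdkn1b lies on chromosome 6, as does Kdm5a, with 225 protein-coding genes between them in the RefSeq order of GRCm38.p6.

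Cdkn2a and Cdkn2b are next to each other on chromosome 4, with 0 protein-coding genes between them in RefSeq, and were even across genotypes. Cdkn2a was read by 1 probe set, 1450140_a_at, for a gene with 2 curated RefSeq transcripts, so p16 and Arf cannot be told apart. Its deposited signal was 42.5 and 70 in wild type and 56 and 94.5 in RBP2-null cells, and its normalized log2 signal was 6.14 and 6.28 against 6.39 and 6.12. The highest and the lowest values were both from RBP2-null lines. The log2 fold change of Cdkn2a was 0.043 (SE 0.29), with 95% bounds at -0.62 and 0.70 (limma adjusted p = 1.00), and it was -0.091 without RBP2-null line 1 and 0.18 without RBP2-null line 2. A rise of up to 1.63-fold or a drop of up to 1.53-fold therefore lay inside the interval.

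Cdkn2b, the p15 gene, had deposited signals of 248.6 and 490.8 in wild type and 375.6 and 800.9 in RBP2-null cells on 1449152_at. Its normalized log2 signal was 8.72 and 8.93 in wild type and 8.87 and 9.03 in RBP2-null cells. The genotypes overlapped, and in both genotypes line 2 was above line 1. The log2 fold change of Cdkn2b was 0.13 (SE 0.21), with 95% bounds at -0.36 and 0.61 (limma adjusted p = 1.00). Leaving out 1 array at a time gave values from 0.024 to 0.23, all above 0.

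Cdkn2c, the p18 gene, had the largest estimate of the 9 kept member probe sets, and that estimate rested on 1 line. Probe set 1416868_at had deposited signals of 117.6 and 200.6 in wild type and 92.7 and 290.5 in RBP2-null cells. Its normalized log2 signal was 7.65 and 7.66 in wild type and 7.03 and 7.60 in RBP2-null cells. The wild-type lines differed by 0.010 and the RBP2-null lines by 0.56. RBP2-null line 1 was low, and RBP2-null line 2 lay just under the wild-type lines. The log2 fold change of Cdkn2c was -0.34 (SE 0.27), with 95% bounds at -0.97 and 0.28 (limma adjusted p = 1.00). Without RBP2-null line 1 it was -0.062 and without RBP2-null line 2 it was -0.63.

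Cdkn2d, the gene of p19Ink4d, which is unrelated in sequence to Arf although both have been called p19, had lines that lay close together within each genotype. Deposited signal of 1416253_at was 87.9 and 149.5 in wild type and 93 and 208.7 in RBP2-null cells. The normalized log2 signal was 7.23 and 7.26 in wild type and 7.04 and 7.14 in RBP2-null cells, so both RBP2-null lines were lower. The difference between genotype means exceeded the gaps between lines of 1 genotype. The log2 fold change of Cdkn2d was -0.16 (SE 0.25), with 95% bounds at -0.72 and 0.40 (limma adjusted p = 1.00). Leaving out 1 array at a time gave -0.21 to -0.11. The estimate for Cdkn2d thus kept its sign, at a small size of 0.895-fold.

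Over the 9 kept probe sets, the genotypes did not overlap for 3, or 33.3%, against 29.5% of all kept probe sets, so the share was near the background. All 3 had both RBP2-null arrays below both wild-type arrays, as did 14.9% of all kept probe sets, and 0 members had them above, against 14.6% of all. All 3 were nearer to 0 without RBP2-null line 1. Cdkn2c went from -0.34 to -0.062, the brighter Rbl2 probe set from -0.28 to -0.12 and Cdkn2d from -0.16 to -0.11. Kdm5a, Cxcl12 and the members share the same 4 arrays, so their values are not independent of each other.

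**Figure D2:**
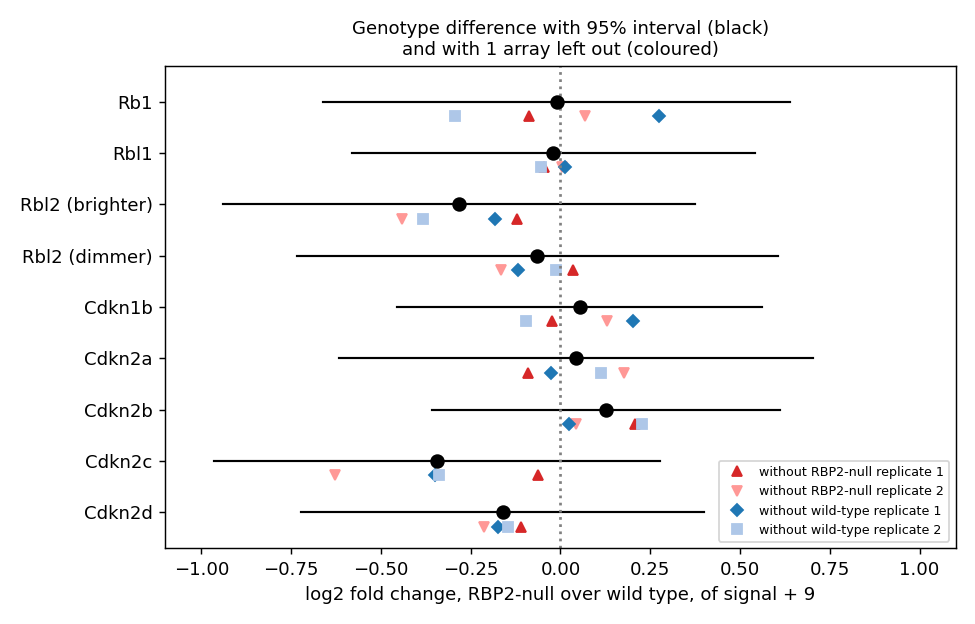
Log2 fold change of RBP2-null over wild type for the 9 kept member probe sets, with black points for the estimate from 4 arrays, black lines for its 95% interval, and coloured symbols for the estimate with 1 array left out. All 9 intervals cross 0, and the coloured symbols fall on both sides of 0 for Rb1, Rbl1, the dimmer Rbl2 probe set, Cdkn1b and Cdkn2a.

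**Figure D3:**
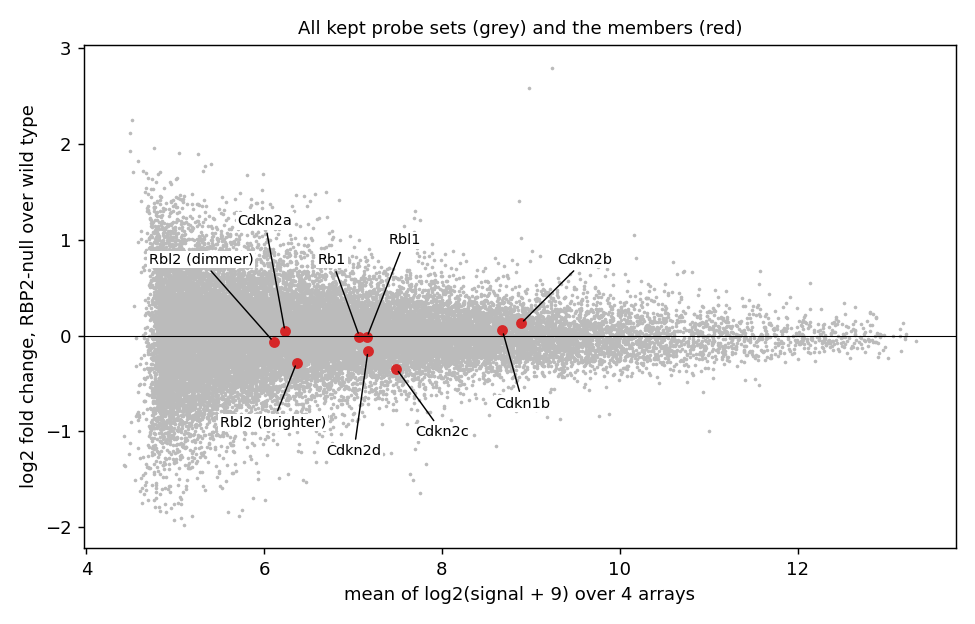
Log2 fold change of RBP2-null over wild type against the mean log2(signal + 9) over 4 arrays, with all 27023 kept probe sets in grey and the 9 member probe sets in red. The members lie inside the grey cloud between -0.34 and 0.13, and the highest grey point is Cxcl12 at 2.79.

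The line number was set beside genotype because the titles number the lines 1 and 2 in both genotypes. In a limma fit with both terms, 0 of the 9 kept member probe sets differed by line number at an adjusted p of 0.05, against 2.02% of all kept probe sets. Their differences, line 2 minus line 1, ran from -0.36 for Rb1 to 0.29 for Cdkn2c. For Rb1, Rbl1 and Cdkn1b line 1 was higher than line 2 in both genotypes. For Cdkn2b, Cdkn2c, Cdkn2d and the dimmer Rbl2 probe set it was lower in both. Without scaling of the arrays 5 of the 9 passed by line number. The share of all kept probe sets in that setting is not given here, so the 5 are not read as a result about the members. Both arrays numbered 2 had higher deposited medians than those numbered 1.

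Other genes of the pathway were described from 11 lists, with the brightest kept probe set of each gene. They held 100 kept genes that are not members, of which 0 passed the threshold in either direction. At an unadjusted limma p under 0.05 there were 2, or 2%, against 2.96% of kept probe sets and 358 of 13115 kept genes. The median of the 100 was 0.042, with 57 above 0 and 43 below, against a median of -0.010 over 13115 genes. The genotypes did not overlap for 23 of the 100, or 23%, against 29.5% of kept probe sets and 3833 of 13115 genes. As no gene of a list passed, no list is given a direction. Signs of the medians of several lists turned with arrays centred on their medians, relative to the median of all probe sets, which that setting moved to 0.18. They did so for pocket proteins (-0.020 and 0.029), G1 cyclins (-0.045 and 0.062), E2F targets (-0.0025 and 0.12) and regulators of the Ink4a-Arf locus (0.040 and -0.0030).

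Among the other Kip genes, Cdkn1a, the p21 gene and a target of p53, had a log2 fold change of 0.044 (SE 0.22), and Cdkn1c, the p57 gene, had -0.15 (SE 0.34). With 1 array left out Cdkn1a ran from -0.22 without RBP2-null line 1 to 0.31 without RBP2-null line 2, and Cdkn1c from -0.53 without RBP2-null line 2 to 0.23 without RBP2-null line 1, so both changed sign. Of the 8 G1 cyclins and kinases that the inhibitors act on, 0 passed the threshold, and their median was -0.045 with 2 above 0 and 6 below, or -0.17 without RBP2-null line 1 and 0.082 without RBP2-null line 2. Cdk4, the kinase that Ink4 proteins bind, had -0.18 on its brightest probe set and 0.10 and -0.10 on others, and Ccne2, cyclin E2, had 0.32, or 0.057 without RBP2-null line 1.

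Downstream of the pocket proteins, 9 E2F and DP genes had a median of 0.046, with 5 above 0, 4 below and 0 past the threshold, and it ran from -0.064 without wild-type line 2 to 0.067 without RBP2-null line 2. E2f5, a partner of p130, had -1.45 (SE 1.28) on its brightest probe set and 0.049 and 0.53 on dimmer ones, so its probe sets disagreed. Leaving out 1 array at a time moved the brightest E2f5 value from -3.54 to 0.65. Of the 22 E2F target genes, 0 passed the threshold, and their median was -0.0025 with 10 above 0 and 12 below. That median was -0.18 with 3 of 22 above 0 without wild-type line 1, and 0.17 with 15 above 0 without wild-type line 2. Ccna2, cyclin A2, had -0.34 (SE 0.21), or -0.21 without RBP2-null line 2, and -0.31 on its other kept probe set, and Chaf1b, a chromatin assembly factor of S phase, had -0.42 (SE 0.26). The log2 signal of Chaf1b was 6.77 and 6.80 in wild type and 6.37 and 6.35 in RBP2-null cells, so its lines lay close together within each genotype. Both Ccna2, on its brightest probe set, and Chaf1b had both RBP2-null lines below both wild-type lines.

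The partners of p107 and p130 in the DREAM complex, with Mybl1, Mybl2 and Foxm1, had the median farthest from 0 of the 11 lists, 0.33 over 8 genes, with 7 above 0, 1 below and 0 past the threshold. That median was -0.14, with 2 of 8 above 0, without wild-type array 1, the array that stood apart. Mybl1 had 0.66 (SE 0.41), or 0.17 without that array, and Lin54, a DNA-binding MuvB subunit, had 0.51 (SE 0.40), or -0.080 without it. A second Lin54 probe set had -0.16.

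Upstream, 21 kept regulators of the Ink4a-Arf locus, which are Polycomb proteins, demethylases and transcription factors, had a median of 0.040, with 11 of them above 0, 10 below and 0 past the threshold. Without wild-type line 1 it was -0.13 with 6 of 21 above 0, and without RBP2-null line 2 it was -0.062. Ets1, an activator of p16, had 0.46 (SE 0.27) on its brightest probe set, or 0.11 with wild-type array 1 left out, and 0.22, 0.027 and 0.50 on others. Jdp2 had -0.38 (SE 0.23), or -0.24 without RBP2-null line 1. Cdkn2a did not pass in the same fit. In the p53 arm 0 of 9 genes passed the threshold, and their median was 0.18 with 8 above 0 and 1 below, or 0.097 with 5 of 9 above 0 without wild-type line 1 and 0.31 without RBP2-null line 2. Mdm2, the ubiquitin ligase that Arf binds, had 0.40 (SE 0.21) on its brightest probe set, or 0.22 without RBP2-null line 1, and 0.13 and 0.14 on others. Ccng1 had 0.26 on its brightest probe set, or 0.15 without that line, and -0.080 and 0.063 on others.

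Genes that control p27 protein, the SCF ubiquitin ligase, its cofactors and the FoxO and Akt regulators, had a median of 0.092, with 8 of 11 above 0, 3 below and 0 past the threshold, or 0.039 without RBP2-null line 2. Cops5, a COP9 signalosome subunit that binds p27, had 0.56 (SE 0.21), an unadjusted limma p of 0.025 and a limma adjusted p of 1.00. With 1 array left out Cops5 stayed between 0.44 and 0.67. Fbxw7, which targets cyclin E for degradation, had 0.53 (SE 0.32), or 0.16 without RBP2-null line 1. Of the 11 kept secreted factors of senescent cells, 0 passed the threshold, and their median was 0.038 with 6 above 0 and 5 below, or -0.17 without wild-type line 1 and 0.25 without wild-type line 2. Cxcl5, a neutrophil attractant, had 1.35 (SE 0.52, limma adjusted p = 1.00), which was 0.52 without wild-type array 1 and 2.18 without wild-type array 2, where its limma adjusted p was 0.040. Igfbp7 had -0.34 (SE 0.26), or -0.016 without RBP2-null line 2 and -0.071 without wild-type line 1.

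**Figure D4:**
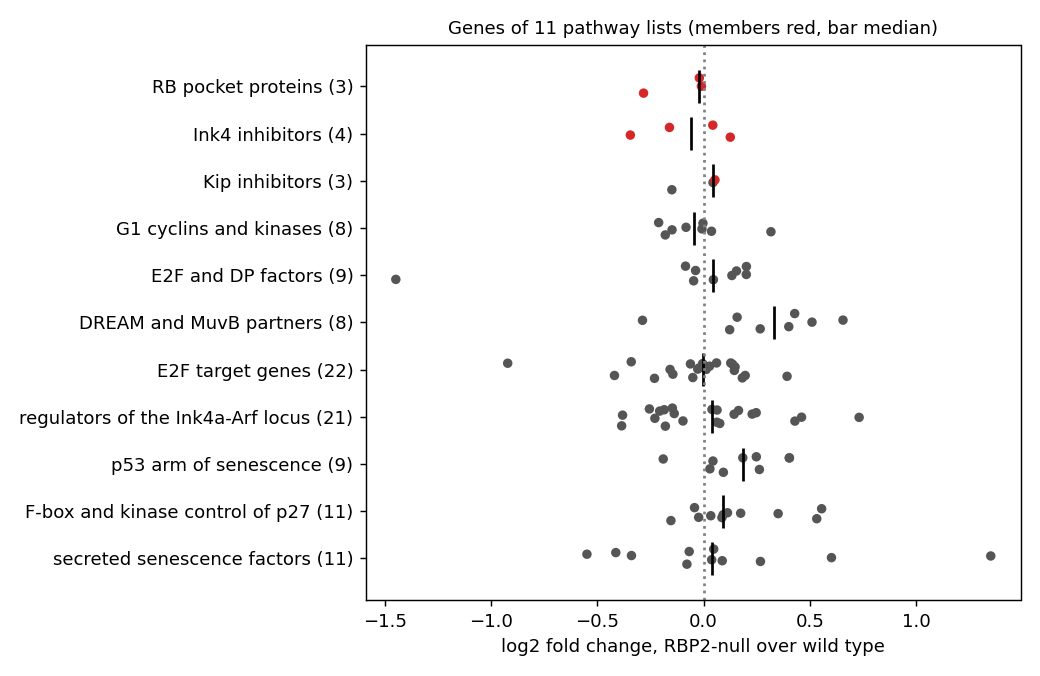
Log2 fold change of RBP2-null over wild type for the kept genes of 11 pathway lists, 1 point per gene on its brightest probe set, with members in red, a black bar at each list's median and the number of genes in brackets. Most points lie within 0.5 of 0, and the points farthest out are E2f5 at -1.45 and Cxcl5 at 1.35.

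The genes with profiles most like those of Cdkn2c and Rb1, the members with the widest range over arrays, were found by the root mean square difference of log2 values centred on each gene's mean over the 4 arrays. For Cdkn2c they were Cxcr5, Atf5 and Wasf3, with differences of 0.025, 0.027 and 0.028, and each had its lowest value in RBP2-null line 1. For Rb1 they were Faim2, Hebp2 and Ccr9, with 0.0034, 0.017 and 0.019, and each was highest in wild-type line 1 and lowest in wild-type line 2. With 4 arrays such likeness is common. Of 13114 genes compared, 183 lay within 0.1 of Cdkn2c and 406 within 0.1 of Rb1.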

How the data were processed

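The deposited values are linear intensities, 1 for each array and probe set, and per the labels the RNA was labelled with biotin for Affymetrix arrays. The sources used here do not say how probes were summarised or background corrected. Control probe sets (64 of 45101) were left out. The trimmed means of the arrays, without 2% at each end, differed by 2.46 times, so linear values were quantile normalized. A pseudocount of 9, about the 25th percentile of the values, was added before log2, and the upper 60% of probe sets by mean were kept, 27023 in all, of which the dimmest had a mean of 19.8. Two-sided tests between genotypes used limma 3.58.1 (R 4.3.3), by lmFit and by eBayes with a prior variance that depends on the mean, and Benjamini-Hochberg adjustment ran over the kept probe sets. The procedure was tested on simulated data, in 10 runs with 200 changed probe sets each. Of changes of log2 size 1, 2.4% passed the threshold, against 52.4% at size 2, 86.8% at size 3 and 95.8% at size 4. Of 1240 calls in all, 53 were false. The threshold thus missed most changes of log2 size 1. By itself, the lack of members or list genes past it does not exclude such changes. Gene names came from a platform annotation, with 1 symbol for 34945 probe sets, several for 932 and none for 9160, and only probe sets with 1 symbol were named. A gene is given on its brightest probe set where no other is named. Of each pathway list up to 2 genes that are not members, those with the smallest unadjusted p, were named, and so were the 3 genes nearest in profile to each of the 2 members with the widest range. The members and lists were chosen with earlier results of these data known. The numbers of the lines were not taken as pairs, since there are 2 of them and no source says what they share. Alternatives covered the pseudocount, filter, scaling, variance model, threshold, probe sets open to cross-hybridisation, a block for the replicate number and each array left out.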

Additional observations from a re-analysis of the deposited data

How the results depend on the processing

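The 4 arrays and 2 residual degrees of freedom limit every value, and signal near background limits those of dim probe sets. Member probe sets past the threshold were 0 in each alternative run, including the replicate block and an adjusted p of 0.10, and the smallest limma adjusted p of a member over all settings was 0.72. Over all probe sets the count was 1, against 0 without the filter, without scaling and without the mean-dependent variance, and 2 with arrays centred on the median. It ran from 0 to 41 with 1 array left out, namely 41 without wild-type line 2, 2 without wild-type line 1, 1 without RBP2-null line 1 and 0 without RBP2-null line 2. With the replicate block, which leaves 1 residual degree of freedom, 46 probe sets passed. Samples of the same number had deviations that correlated at 0.11, which with 2 pairs does not settle a pairing. Among genes of the pathway lists 1, Cxcl5, passed with the replicate block (limma adjusted p = 0.038) and 1, again Cxcl5, without wild-type replicate 2, where the others left out gave 0. By line number 5 member probe sets passed without scaling and 0 in the other settings, which were chosen after seeing the data. No share over all kept probe sets is given for the fit without scaling, so the 5 are not read as a result about the members. Of 123 recomputed member values 104 kept their sign and 19 did not. The settings of the filter, variance model, replicate block and probe sets open to cross-hybridisation cannot move a member's estimate. Their signs were thus kept by design, and the 104 does not measure robustness. With arrays centred on the median or without scaling, relative to a median shift of 0.18 and 0.38 over all probe sets, Rb1 had 0.045, Rbl1 0.029 and Cdkn2a -0.021. On other probe sets Rbl1 had 0.29, 0.44 and 0.031 and Cdkn1b -0.77. With 1 array left out, values ran from -0.29 to 0.27 for Rb1, -0.053 to 0.014 for Rbl1, -0.16 to 0.035 for the dimmer Rbl2 probe set, -0.096 to 0.20 for Cdkn1b and -0.091 to 0.18 for Cdkn2a. The cause of these changes was not tested.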
